A study of Mus musculus with 24 samples.

Results

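The effect of giving trametinib and chemotherapy together was measured in 12 libraries taken 6 h after treatment, of 24 libraries in the series. The cells were LLC1, a mouse Lewis lung carcinoma line. Cells of the combination received cisplatin at 2.5 µM, pemetrexed at 2.5 µM and trametinib at 10 nM. Cells of the chemotherapy group received cisplatin and pemetrexed at those doses, cells of the trametinib group received trametinib at that dose, and untreated cells received only 0.1% DMSO. Each group held 3 libraries at 6 h, and the same 4 treatments were sampled again at 24 h. The 12 libraries were chosen by their labels, with no measured value. Whether the triplicates are separate cultures is not in the labels. The p-values therefore cover the spread among these libraries alone, and that spread may be technical. All results come from 1 cell line in culture.

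The quantity tested was the excess of the combination. It is the log2 effect of the combination against untreated cells, less the log2 effect of chemotherapy and less the log2 effect of trametinib. An excess of 0 means that the effects added on the log2 scale. A positive excess means a level above that sum, which for a gene lowered by both treatments means that the combination lowered it by less than the sum. The libraries hold poly(A) mRNA, and levels are in TPM, a share of all transcripts corrected for transcript length. Effects were taken on log2(TPM + 1), which understates changes of genes at low levels.

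Trametinib inhibits MEK, the kinase that activates ERK, and ERK drives growth-factor-dependent transcription. Cisplatin crosslinks DNA and pemetrexed inhibits enzymes that use folate to make nucleotides. ATF4 is a transcription factor whose protein is made when the integrated stress response is active, and its targets include enzymes that make or import amino acids. It binds DNA as a dimer with C/EBP proteins at a composite site, for which the letters TGATGNAA were searched.

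The 12 libraries were of like quality. Correlations between libraries of 1 group ran between 0.985 and 0.994, and mitochondrially encoded mRNA made up 7.98% to 9.40% of TPM. The leukocyte gene Ptprc, the T cell gene Cd3e and the epithelial gene Epcam were listed at 0 in all 12. Of 5 macrophage markers Adgre1 and Itgam were at 0 and Cd68 stood at 4.31 to 7.02 TPM, and of 4 endothelial markers Pecam1 stood at 2.06 to 4.45 TPM. The macrophage markers summed to 6.33 to 7.18 TPM with the combination, 6.90 to 7.41 TPM with chemotherapy, 4.69 to 7.33 TPM with trametinib and 5.10 to 5.66 TPM in untreated cells, and the part of these levels in the results was not tested. The 6 markers of lung epithelium summed to at most 0.268 TPM, with Epcam and Scgb1a1 at 0, so lung lineage markers were near absent under a label of lung carcinoma. Krt8 stood at 111 to 198 TPM, Krt18 at 149 to 292 TPM and Vim at 3351 to 3917 TPM. The 5 fibroblast markers, none of them at 0 in all 12 libraries, summed to 10.1 to 12.9 TPM with the combination, 3.52 to 3.69 TPM with chemotherapy, 7.81 to 10.8 TPM with trametinib and 2.51 to 3.18 TPM in untreated cells. This sum moved with trametinib, and its part in the results below was not tested.

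At 6 h few genes were called in the combination against the sum of its parts. A gene not called is not thereby shown to follow the sum. At an unadjusted p under 0.05, 1127 genes lay above the sum (8.96%) and 421 below it (3.35%). Of 12581 genes tested, 12 passed an adjusted p of 0.05 (0.0954%), of which 11 lay above the sum (0.0874%) and 1 below it (0.00795%). Of the 11 genes above the sum, 8 fell with chemotherapy and with trametinib, and fell by less than that sum with the combination. These were Ddit3, Vldlr, Cth, Mthfd2, Gpt2, Cdk17, Ldlrad3 and Pycr1. Cryab rose with trametinib and rose further with the combination, Pspc1 fell with chemotherapy, and Gas1, the gene below the sum, rose with trametinib. The tests were limma's moderated test on all 24 libraries with Benjamini-Hochberg adjustment. Under the series' own Bonferroni threshold of 0.10, the calls were Ddit3, Vldlr, Cryab and Cth (4 genes, 0.0318%).

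The count of 12 changed with the libraries in the fit. Fitted on the 12 libraries of 6 h alone, limma called 0 genes, with a smallest adjusted p of 0.0862 for Ddit3 and 1183 genes at an unadjusted p under 0.05. With each of the 12 libraries left out in turn, Ddit3, Vldlr and Cryab were called every time. They were the only 3 calls without untreated replicate 1, untreated replicate 2, chemotherapy replicate 2 or combination replicate 1. The calls numbered 4 without untreated replicate 3, 6 without combination replicate 3 and 7 without trametinib replicate 1. They numbered 28 without chemotherapy replicate 1 and 41 without trametinib replicate 2, and in the 3 other cases 10 to 14. The 41 calls held all 12 genes. Among the other called genes, the call held in 8 of the 12 fits for Cth and in 2 for Pspc1 and Pycr1, with the rest between. The 95% interval of the excess lay within ± 0.5 for 8316 of the genes tested (66.1%) and within ± 1 for 11582 (92.1%).

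The promoter sequences that bear on the ATF4 target genes come from the RefSeq table of GRCm38.p6, which gives 250 bases before and 50 after each gene's start. Of the 34 tested genes of an ATF4 target list, 28 had a window there, and 12 of these held TGATGNAA on either strand (42.9%). Over the whole table, 1219 of 27025 genes held it in any of their windows (4.51%). Of the 12 called genes 8 had a window, and those of Vldlr and Pycr1 held the letters (25%). Stretches of 60 bases from 4 genes are shown to let these letters be read in place, each on the strand of its gene, with the match in capitals; TTNCATCA is the same motif on the other strand. They lie at chr11:120643818-120643877 for Pycr1, chr2:119351023-119351082 for Chac1, chr14:55540137-55540196 for Pck2 and chr8:94386291-94386350 for Herpud1.
Pycr1: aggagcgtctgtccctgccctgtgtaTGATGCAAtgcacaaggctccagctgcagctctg
Chac1: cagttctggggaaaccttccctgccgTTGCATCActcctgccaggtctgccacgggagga
Pck2: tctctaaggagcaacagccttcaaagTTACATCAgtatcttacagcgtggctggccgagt
Herpud1: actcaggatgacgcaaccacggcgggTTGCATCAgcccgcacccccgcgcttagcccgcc
A match is a description of these letters and not a measured site.

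**Figure D1:**
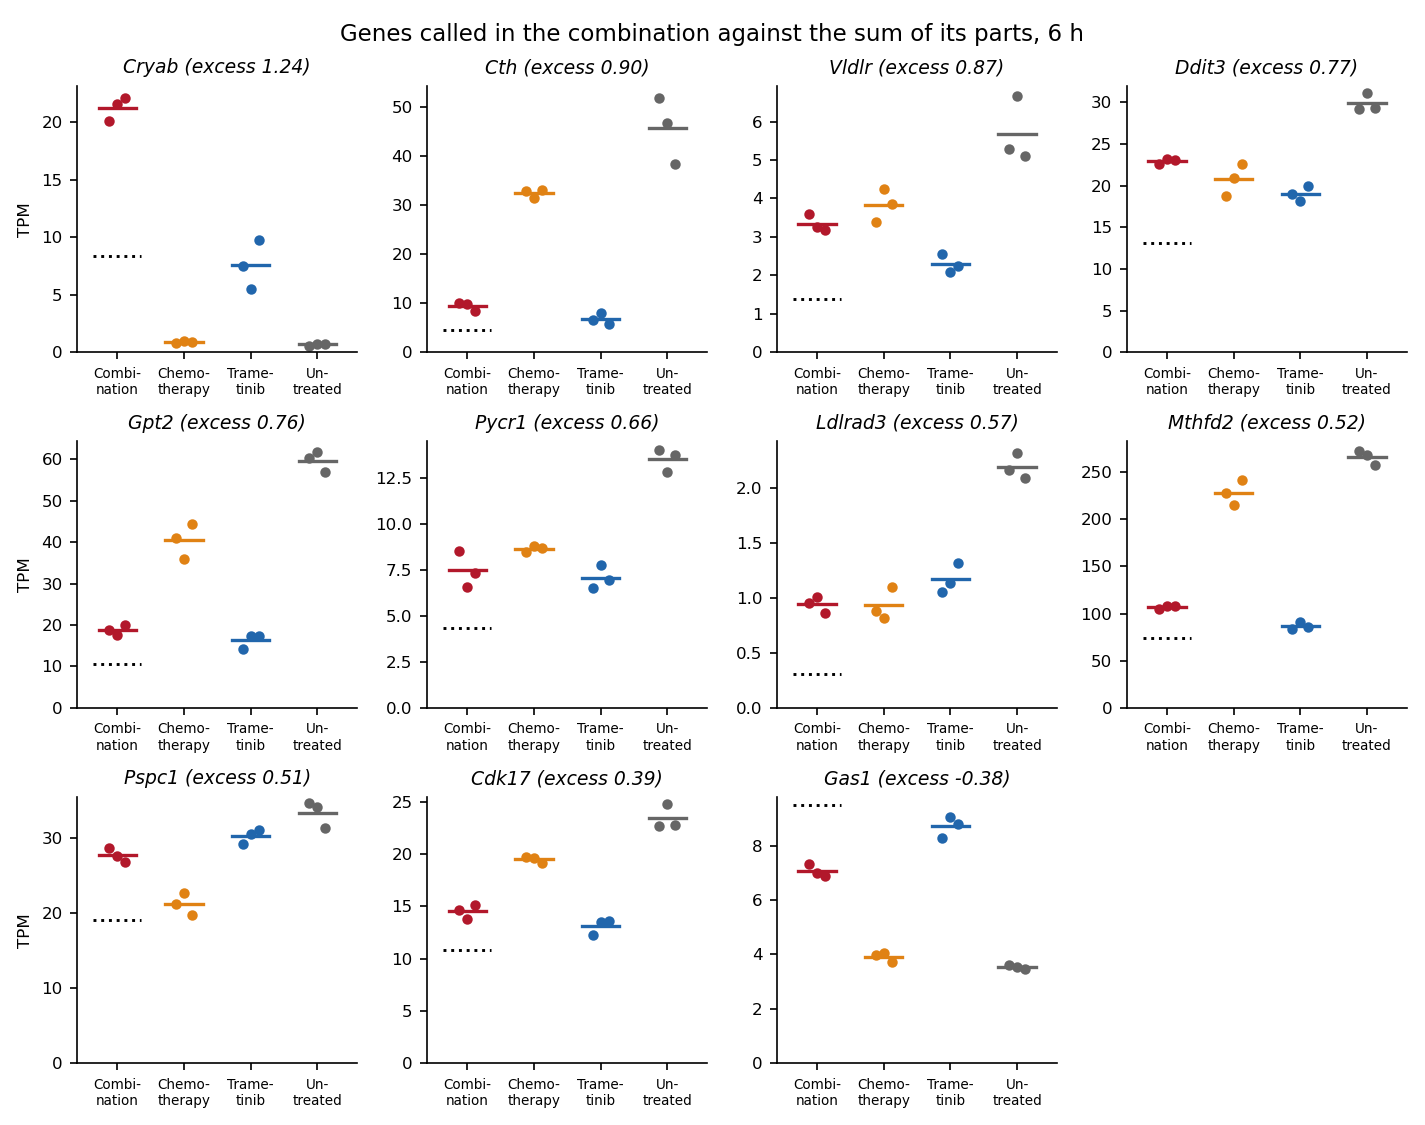
TPM of 11 called genes in the 12 libraries of 6 h, by group on the horizontal axis, with a point for each library, a solid line for the group mean and a dotted line for the level at which the log2 effects of chemotherapy and trametinib would add. In Cryab the 3 combination libraries lie above the 9 others.

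Ddit3 encodes CHOP, a transcription factor induced downstream of ATF4, and lies on chromosome 10 at 127290774 to 127296288 of GRCm38. It stood at 22.6, 23.2 and 23.1 TPM with the combination, 18.8, 20.97 and 22.6 TPM with chemotherapy, 18.98, 18.1 and 20.02 TPM with trametinib and 29.3, 31.1 and 29.3 TPM in untreated cells. Untreated libraries were the highest, and the combination libraries lay at or just above the highest of the chemotherapy libraries. Chemotherapy lowered Ddit3 by a log2 change of -0.51 and trametinib by -0.62, whereas the combination lowered it by -0.36. Added, the effects would have given 13.1 TPM, and the excess was 0.77 ± 0.096 (SE, adjusted p = 0.00224, limma).

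Vldlr, on chromosome 19 at 27216484 to 27254231, encodes the very low density lipoprotein receptor, a target of ATF4. Its levels were 3.59, 3.26 and 3.19 TPM with the combination, 3.40, 4.25 and 3.85 TPM with chemotherapy, 2.55, 2.08 and 2.24 TPM with trametinib and 5.30, 6.66 and 5.10 TPM in untreated cells. The combination overlapped chemotherapy, and the trametinib libraries were the lowest. The excess was 0.87 ± 0.12 (SE, adjusted p = 0.00408, limma), and adding the effects would have given 1.38 TPM.

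Cth encodes cystathionine gamma-lyase, which makes cysteine, and lies on chromosome 3 at 157894248 to 157925077. It had 10.0, 9.96 and 8.48 TPM with the combination, 32.9, 31.6 and 33.1 TPM with chemotherapy, 6.64, 8.05 and 5.81 TPM with trametinib and 52.0, 46.8 and 38.4 TPM in untreated cells. No 2 groups overlapped, with the combination between trametinib and chemotherapy. The excess was 0.90 ± 0.15 (SE, adjusted p = 0.0209, limma) over a summed level of 4.62 TPM.

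Pycr1, which completes proline synthesis, lies on chromosome 11 at 120635712 to 120643769. It stood at 8.52, 6.60 and 7.36 TPM with the combination, 8.47, 8.79 and 8.72 TPM with chemotherapy, 6.55, 7.76 and 6.98 TPM with trametinib and 14.03, 12.9 and 13.8 TPM in untreated cells. The 3 treated groups lay close together, all below the untreated libraries, and the combination overlapped both of the others. Its excess was 0.66 ± 0.12 (SE, adjusted p = 0.0424, limma). The call held in 5 of 10 other settings, the Bonferroni threshold aside, and in 2 of 12 fits with 1 library left out. The promoter stretch above is that of this gene.

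Gpt2, the mitochondrial alanine aminotransferase, and Mthfd2, a mitochondrial enzyme of the folate pathway, were each strongly lowered by trametinib. Gpt2, on chromosome 8 at 85492576 to 85527560, had 18.9, 17.6 and 19.95 TPM with the combination, 41.1, 35.9 and 44.3 TPM with chemotherapy, 14.1, 17.4 and 17.3 TPM with trametinib and 60.4, 61.8 and 57.0 TPM in untreated cells. Mthfd2, on chromosome 6 at 83305691 to 83325908, had 105, 108 and 108 TPM with the combination, 227, 215 and 242 TPM with chemotherapy, 83.4, 91.2 and 85.9 TPM with trametinib and 273, 268 and 258 TPM in untreated cells. In both genes no groups overlapped and the combination lay just above trametinib. Against trametinib the combination gave a log2 change of 0.20 for Gpt2, which did not pass (adjusted p = 0.144, limma). For Mthfd2 it gave 0.30 (adjusted p = 0.00233, limma). The excess was 0.76 ± 0.13 for Gpt2 (SE, adjusted p = 0.0287, limma) and 0.52 ± 0.089 for Mthfd2 (SE, adjusted p = 0.0278, limma).

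Cdk17 is a cyclin-dependent kinase of the PCTAIRE group, on chromosome 10 at 93160875 to 93267071. It had 14.6, 13.8 and 15.1 TPM with the combination, 19.7, 19.6 and 19.2 TPM with chemotherapy, 12.2, 13.5 and 13.6 TPM with trametinib and 22.6, 24.8 and 22.8 TPM in untreated cells. The groups did not overlap, and trametinib was lowest, but the combination against trametinib did not pass (log2 change 0.14, adjusted p = 0.0548, limma). The excess was 0.39 ± 0.069 (SE, adjusted p = 0.0310, limma).

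Ldlrad3 encodes a membrane protein of the LDL receptor class A domain family, on chromosome 2 at 101950203 to 102186385. It stood at 0.949, 1.01 and 0.862 TPM with the combination, 0.880, 0.817 and 1.10 TPM with chemotherapy, 1.05, 1.137 and 1.32 TPM with trametinib and 2.16, 2.32 and 2.09 TPM in untreated cells. The treated groups lay well below untreated cells, and the combination overlapped chemotherapy. Its excess was 0.57 ± 0.11 (SE, adjusted p = 0.0424, limma).

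Pspc1 encodes a protein of paraspeckles, nuclear bodies built on a noncoding RNA, on chromosome 14 at 56720710 to 56778316. It had 28.7, 27.6 and 26.9 TPM with the combination, 21.2, 22.8 and 19.7 TPM with chemotherapy, 29.3, 30.5 and 31.1 TPM with trametinib and 34.8, 34.2 and 31.4 TPM in untreated cells. The chemotherapy libraries were the lowest and did not overlap the combination. Chemotherapy lowered Pspc1 by a log2 change of -0.63, trametinib gave -0.14 (adjusted p = 0.0920, limma), and the excess was 0.51 ± 0.095 (SE, adjusted p = 0.0424, limma). The call held in 3 of 10 other settings, the Bonferroni threshold aside, and in 2 of 12 fits with 1 library left out.

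In 2 called genes, Cryab among them, all 3 combination libraries lay above the 9 others, which was so of 11.1% of all genes, and in 0 called genes did all 3 lie below them, against 2.15% of all genes. Cryab encodes alpha-B crystallin, a small heat shock protein that binds unfolded proteins, on chromosome 9 at 50751325 to 50756636. It stood at 20.1, 21.6 and 22.1 TPM with the combination, 0.819, 0.973 and 0.879 TPM with chemotherapy, 7.46, 5.54 and 9.80 TPM with trametinib and 0.591, 0.739 and 0.754 TPM in untreated cells. Chemotherapy alone left it under 1 TPM, and the combination was above each trametinib library. Trametinib raised Cryab by a log2 change of 2.31, chemotherapy gave 0.16 (adjusted p = 0.419, limma), and the combination raised it by 3.71. The excess of 1.24 ± 0.19 (SE, adjusted p = 0.00947, limma) put it at 2.36 times the summed level on the TPM + 1 scale. With a pseudocount of 0.1 the call was lost (adjusted p = 0.0701, limma). Cryab was the 1 called of 15 tested genes of a heat shock list, against 0.0874% of all genes called above the sum. Of the 15, 11 had an excess below 0, against 5107 of all 12581 genes, and the median was -0.093.

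Gas1 encodes a membrane protein that takes part in Hedgehog signalling and was first described as a gene of growth arrest, on chromosome 13 at 60174405 to 60177365. It had 7.33, 6.98 and 6.90 TPM with the combination, 3.98, 4.06 and 3.71 TPM with chemotherapy, 8.27, 9.06 and 8.81 TPM with trametinib and 3.62, 3.55 and 3.48 TPM in untreated cells. No groups overlapped, and the combination lay below trametinib. Trametinib raised Gas1 by a log2 change of 1.09, the combination by 0.83, and the excess was -0.38 ± 0.070 (SE, adjusted p = 0.0424, limma).

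The sum on the log2 scale is not the only way to add effects. With effects added on the linear TPM scale, all 12 called genes kept the sign of their excess. Of these, 6 passed an adjusted p of 0.05, among them Cryab, Ddit3, Gpt2, Mthfd2 and Pycr1. The linear sum was -6.36 TPM for Cth, -3.04 TPM for Gpt2 and -0.087 TPM for Ldlrad3, levels that cannot occur. In those genes the sign was therefore fixed in advance, and neither it nor the pass of Gpt2 is support for an excess. On that scale 28 genes passed in all, and an excess is in units of the gene's mean TPM over the 12 libraries, so its size does not compare with a log2 value. The log2 fit on the same 12 libraries called 0 genes. A call gained or lost between the scales therefore mixes the change of scale with the change of libraries fitted, here and below.

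**Figure D2:**
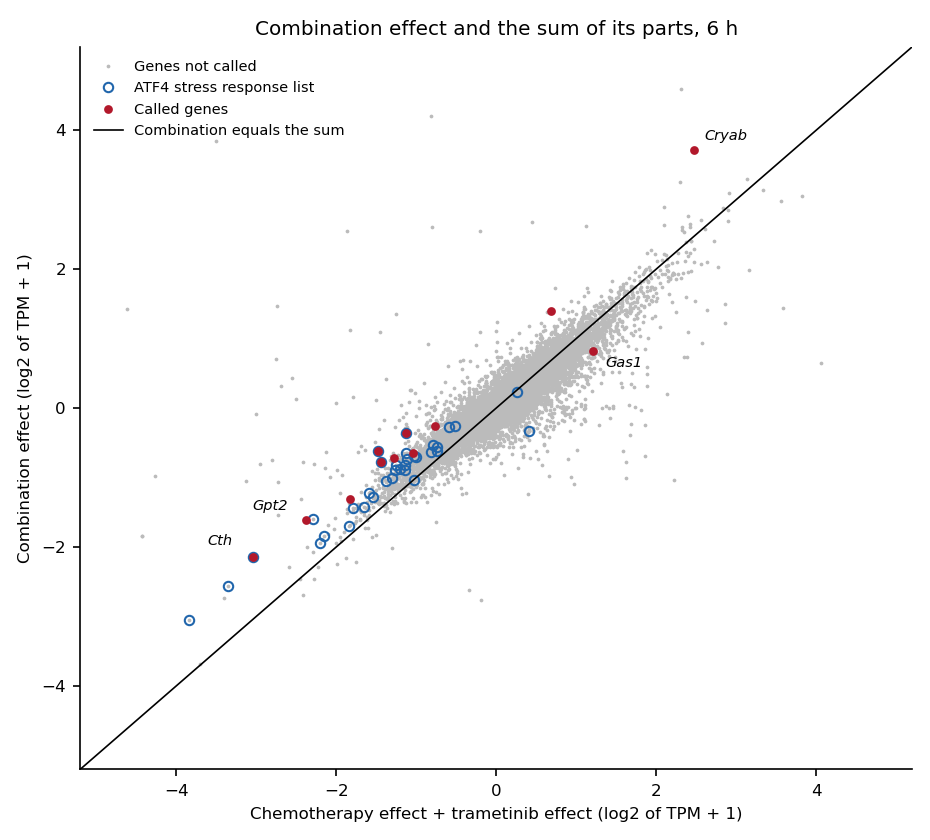
For each tested gene except 5 beyond the axes, the log2 effect of the combination (vertical axis) against the chemotherapy and trametinib effects added together (horizontal axis) at 6 h, with called genes marked. Cryab lies above the line of equality on the side of raised genes, Cth and Gpt2 above it on the side of lowered genes, and Gas1 below it.

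The patterns most like Cryab and Gas1 over the 12 libraries were read as a description. Cryab was closest to Anxa8 (Pearson r = 0.992), followed by Tmem19 and Sord, Pdk4 and Nqo1, the lowest of these at 0.989. Anxa8, an annexin that binds membranes in the presence of calcium, stood at 15.8, 13.4 and 13.5 TPM with the combination, 1.67, 0.985 and 1.13 TPM with chemotherapy, 6.67, 6.07 and 8.27 TPM with trametinib and 0.930, 1.00 and 1.21 TPM in untreated cells. Like Cryab it was highest in all 3 combination libraries, but its excess of 0.80 did not pass the adjusted test (adjusted p = 0.0515, limma). With effects added on the linear TPM scale it passed (adjusted p = 0.0221, limma). Gas1 was closest to Mgat3 (r = 0.990). All points share the group structure of the 12 libraries.

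Of the 30 lists examined, the ATF4 target list held the most called genes. Of its 34 tested genes, 4 were called above the sum (Ddit3, Vldlr, Cth and Pycr1) and 0 below it, against 0.0874% and 0.00795% of all genes. At an unadjusted p under 0.05, 27 of the 34 lay above the sum and 0 below, against 8.96% and 3.35% of all genes. The median excess of the list was 0.32, against 0.043 over all genes, and 31 of its 34 genes had an excess above 0, against 59.4% of all genes. These genes were chosen as a list with earlier results of these data known, and no test of the list was made.

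The median effect on the list was below 0 in each treated group, with a log2 value of -0.85 for the combination, -0.31 for chemotherapy and -0.89 for trametinib. Its TPM summed to 2914 to 3029 in combination libraries, 4536 to 4865 in chemotherapy libraries, 2925 to 3063 in trametinib libraries and 5502 to 5760 in untreated libraries. The sum with the combination overlapped that with trametinib alone. Atf4 itself stood at 183, 178 and 172 TPM with the combination, 429, 366 and 374 TPM with chemotherapy, 183, 196 and 182 TPM with trametinib and 497, 476 and 468 TPM in untreated cells. Its excess was 0.23 ± 0.078 (SE) and did not pass the adjusted test (adjusted p = 0.285, limma).

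Other members, chosen after their values were seen, lay in a like order. Trib3, a pseudokinase that binds ATF4, had 6.52, 8.38 and 7.60 TPM with the combination, 35.4, 29.4 and 31.8 TPM with chemotherapy, 7.36, 6.43 and 5.33 TPM with trametinib and 52.3, 46.8 and 47.6 TPM in untreated cells. Asns, asparagine synthetase, had 114, 111 and 110.0 TPM with the combination, 241, 232 and 248 TPM with chemotherapy, 106, 121 and 109 TPM with trametinib and 314, 308 and 297 TPM in untreated cells. In both genes the combination overlapped trametinib. The excess was 0.80 for Trib3 (adjusted p = 0.0699, limma), 0.34 for Asns (adjusted p = 0.0722, limma) and 0.79 for Chac1, which degrades glutathione (adjusted p = 0.136, limma). On the linear TPM scale all 3 passed above the sum, Trib3 with an adjusted p of 0.0178 and Asns and Chac1 with 0.0221 (limma). For Trib3 the sum on that scale lay below 0 TPM, so a level above it was certain and its pass is no support. The 3 members with an excess below 0 were Cebpb at -0.75 ± 0.36 (SE), Shmt2 at -0.01 and Ddit4 at -0.02, of which none passed the adjusted test.

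**Figure D3:**
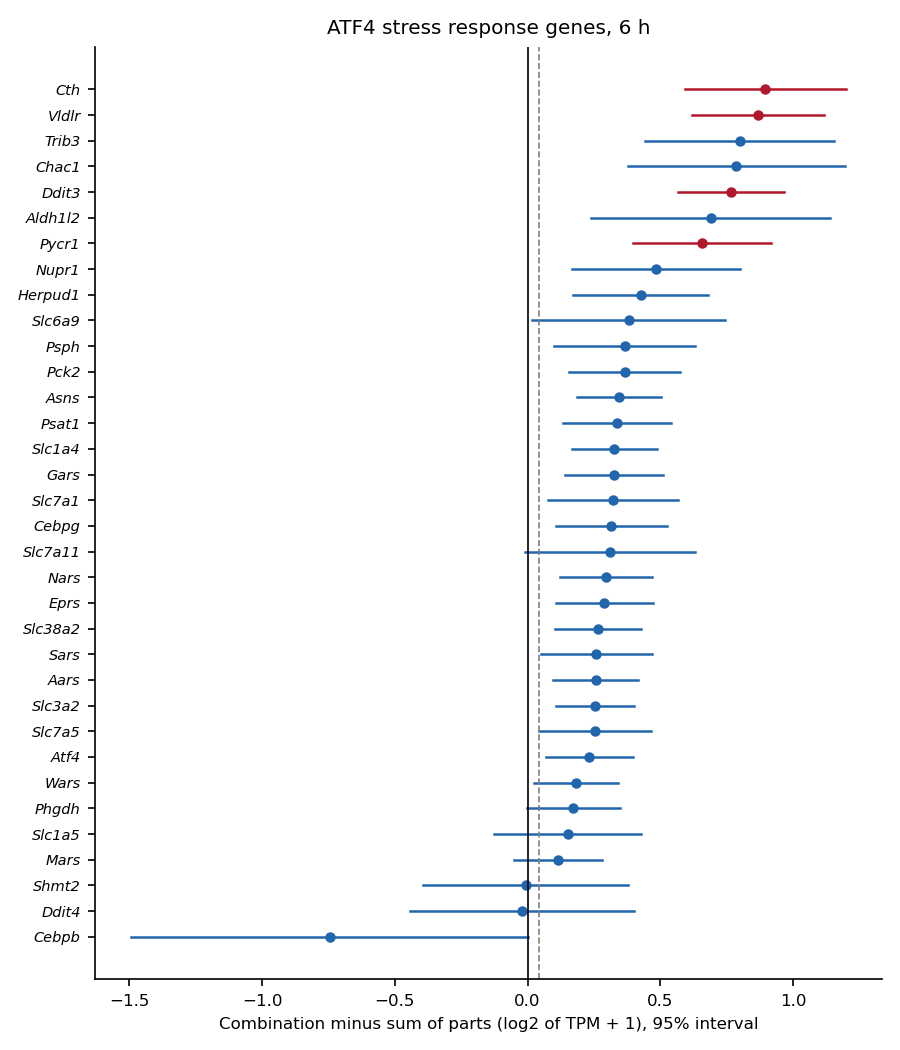
Excess of the combination at 6 h for the 34 tested ATF4 targets, in log2, with 95% intervals, called genes marked and a line at 0. Of the 34 genes 31 lie above 0, and Cebpb has the widest interval of those below it.

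The ERK, p53, S phase, EGF receptor ligand, DNA repair and folate lists are those closest to the direct actions of the drugs. Among them 0 genes were called outside the folate list, in which Mthfd2 was the 1 called of 29. Over all genes 0.0954% were called, so 0 calls in lists of this size, here and below, is near that share. It is not a result about their members. Of 23 ERK output genes 0 were called, with a median log2 effect of -1.35 for the combination, 0.018 for chemotherapy and -1.44 for trametinib. Dusp6, a phosphatase that switches ERK off, had an excess of -0.09 ± 0.20 (SE), and Spry4, a feedback inhibitor of the pathway, 0.06 ± 0.24 (SE). The members with the smallest p-values, chosen after they were seen, were Hmga2, a chromatin protein, at 0.67 (adjusted p = 0.0699, limma), and Spry1, a feedback inhibitor, at -0.63 (adjusted p = 0.0699, limma). On the linear TPM scale Hmga2 passed above the sum (adjusted p = 0.00144, limma).

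Of 29 p53 targets 0 were called, with a median excess of 0.042. Cdkn1a, the gene of the cell cycle inhibitor p21, was raised by a log2 change of 1.12 with the combination and 1.22 with chemotherapy, and trametinib gave 0.21. Its excess was -0.31 ± 0.17 (SE, adjusted p = 0.445, limma). Mdm2, the ubiquitin ligase of p53, had an excess of 0.07 ± 0.12 (SE, adjusted p = 0.808, limma). Other genes were chosen after their values were seen. Sesn2, a stress sensor that restrains mTORC1, had 0.58 ± 0.11 (SE, adjusted p = 0.0515, limma). Of 32 S phase genes 0 were called, with a median of 0.081. E2f8, a repressor of E2F targets, had an excess of 0.58 (adjusted p = 0.0515, limma).

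In the EGF receptor ligands, which feed the pathway that trametinib blocks, 0 of 5 tested genes were called. An excess above 0 was found in 4, against 59.4% of all genes, with a median of 0.36. Areg, amphiregulin, had 24.2, 22.3 and 19.3 TPM with the combination, 92.3, 88.7 and 95.7 TPM with chemotherapy, 9.42, 10.1 and 8.55 TPM with trametinib and 56.2, 59.9 and 57.1 TPM in untreated cells. Chemotherapy raised Areg and trametinib lowered it, with the combination between trametinib and untreated cells. The excess was 0.48 for Areg (adjusted p = 0.247, limma), 0.36 for Hbegf (adjusted p = 0.257, limma) and 0.40 for Ereg (adjusted p = 0.287, limma), and none of the 3 passed. The direction rested on the scale for Areg: with effects added in TPM the sum would have been 43.9 TPM, against a mean of 21.9 TPM with the combination, and Areg passed below that sum (adjusted p = 0.0178, limma). On that scale 3 of the 5 genes lay above 0, with a median of 0.0087.

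**Figure D4:**
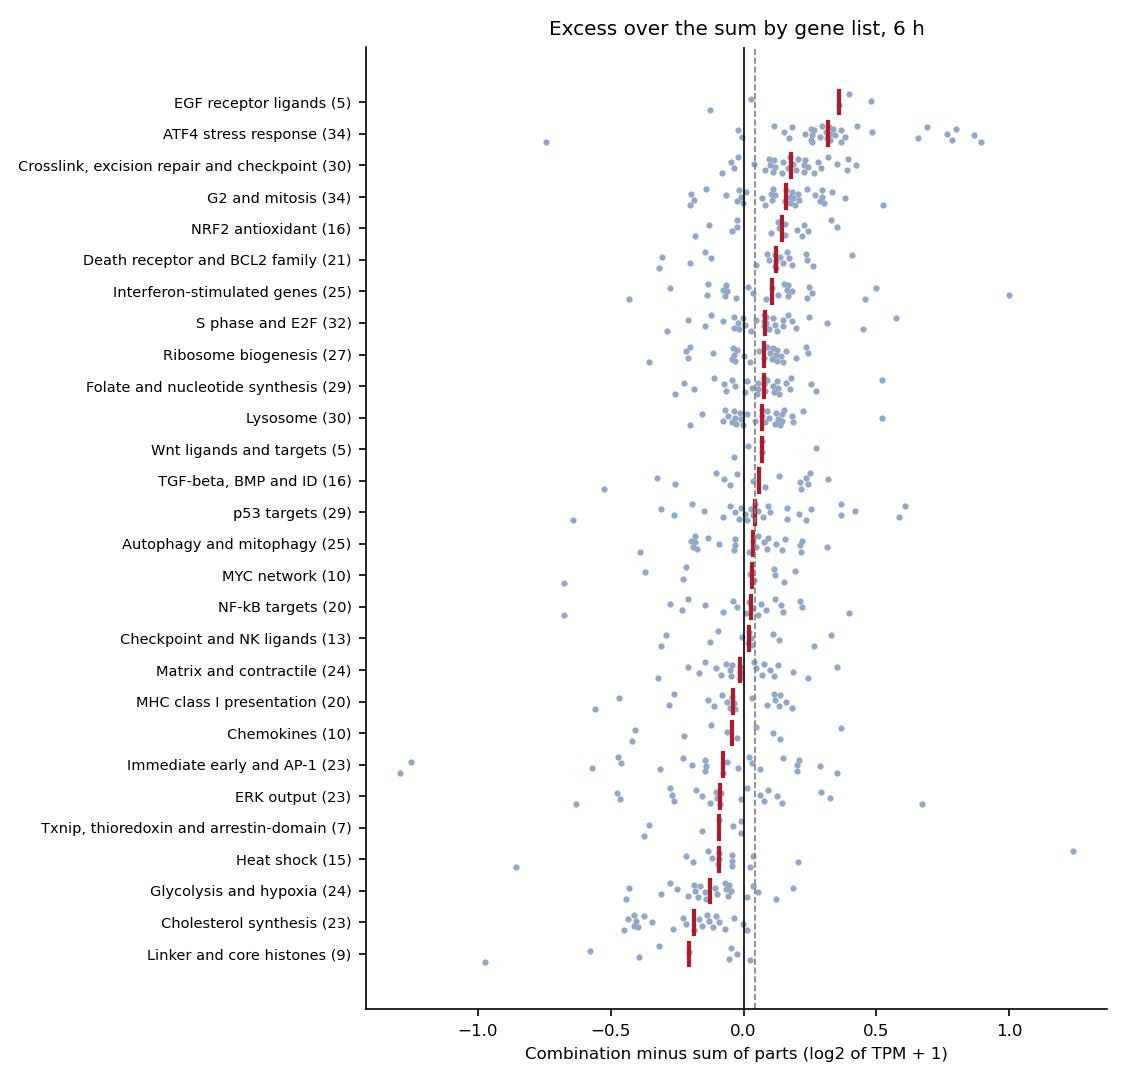
Median excess of the combination at 6 h for each gene list, in log2, as a bar over a point for each gene, with the number of tested genes of each list and a dashed line at the median over all 12581 genes. The EGF receptor ligands and the ATF4 list are at the top at 0.36 and 0.32 on this log2 scale (0.0087 and 0.27 with effects added in TPM), and the histones and cholesterol synthesis at the bottom at -0.21 and -0.19.

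Cholesterol synthesis genes had an excess mostly below 0. Of 23 tested, 22 had an excess below 0, against 5107 of all 12581 genes, and 0 were called, with a median of -0.19. With effects added in TPM the median was -0.080 and 6 lay above 0. Hmgcs1, an early enzyme of the pathway, had -0.19 (adjusted p = 0.476, limma). Of 24 glycolysis and hypoxia genes 19 lay below 0 with a median of -0.13, and of 9 histone genes 8 with a median of -0.21, and 0 were called in both lists. With effects added in TPM the histone median was -0.46. Histone genes have many near-identical copies, between which reads may be divided.

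Mitotic genes had median effects of opposite sign with chemotherapy and trametinib. Of 34, with 0 called in the excess, 25 lay above 0 (73.5%), against 59.4% of all genes. The median excess was 0.16, against 0.043 over all genes. The median log2 effect was -0.14 for the combination, -0.71 for chemotherapy and 0.26 for trametinib. Nusap1, which bundles spindle microtubules, chosen after its values were seen, had 49.4, 46.9 and 49.6 TPM with the combination, 14.6, 16.9 and 17.5 TPM with chemotherapy, 61.8, 61.8 and 73.7 TPM with trametinib and 32.6, 33.3 and 31.2 TPM in untreated cells. The combination lay between trametinib and untreated cells, and the excess was 0.52 (adjusted p = 0.0699, limma), but 0.926 was its adjusted p with effects added on the linear TPM scale, where the median of the list turned to -0.011. Plk1 had an excess of -0.20 (adjusted p = 0.582, limma) and Cdc20 of -0.02 (adjusted p = 0.958, limma).

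Protein-coding genes spanning over 200 kb had a median below 0 with chemotherapy too. Of 459, 1 was called above the sum (Ldlrad3), against 0.0874% of all genes. At an unadjusted p of 0.05, 98 passed above the sum and 8 below it, against 8.96% and 3.35% of all genes. An excess above 0 was found in 360, against 59.4% of all genes, with a median of 0.13 (0.078 with a pseudocount of 5, and 0.073 with effects added in TPM). Their median log2 effect was -0.22 for the combination, -0.43 for chemotherapy and 0.11 for trametinib. DNA repair genes, 26 of 30 of which lay above 0 with a median of 0.18, held 0 calls. The interferon-stimulated genes also held 0 calls, with 16 of 25 tested above 0, a median of 0.11 and a highest excess of 1.00. Irf1, an activator of interferon-response genes, had an excess of -0.43 ± 0.087 (SE, adjusted p = 0.0568, limma). Cxcl10, a chemokine that draws T cells, had 0.05 ± 0.16 (SE, adjusted p = 0.915, limma).

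The same contrast was called in far more genes at 24 h. It passed in 3997 of 12581 genes (31.8%), of which 2040 lay above (16.2%) and 1957 below (15.6%). Of the 12 genes called at 6 h, 9 were called at 24 h in the same direction, which is 75% of the 6 h calls and 0.225% of the 24 h calls. The other 3 were Vldlr, Cryab and Gpt2, and 11 of the 12 had the same sign at both times. For Ldlrad3, called at both times, the log2 effects at 24 h would add to -0.061 TPM, a level that cannot occur. Its excess above 0 at 24 h was therefore fixed in advance. The difference between the excess at 24 h and that at 6 h passed in 1879 genes (14.9%), 776 of them higher at 24 h (6.17%) and 1103 lower (8.77%), and in 6 of the 12.

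The excess was larger at 24 h in 4 of these 6 genes. It was 1.37 at 24 h against 0.77 at 6 h for Ddit3, 0.91 against 0.39 for Cdk17, 1.21 against 0.66 for Pycr1 and -0.92 against -0.38 for Gas1. For Vldlr it was lower, at 0.13 at 24 h against 0.87 at 6 h. Cryab at 24 h stood at 28.4, 31.7 and 23.5 TPM with the combination, 5.02, 4.33 and 4.19 TPM with chemotherapy, 9.25, 8.37 and 8.70 TPM with trametinib and 0.295, 0.525 and 0.352 TPM in untreated cells. Here the chemotherapy libraries stood above the untreated ones, and the excess was -0.43 (adjusted p = 0.0822, limma), and its sign and call changed with the setting. It was -1.61 with a pseudocount of 0.1 (adjusted p = 6.87e-05, limma), -0.48 after rescaling (adjusted p = 0.0485, limma) and 0.43 with a pseudocount of 5 (adjusted p = 0.0136, limma). Cholesterol synthesis had a median of -0.95 at 24 h with 18 of 23 genes called lower, and mitotic genes a median of 0.55 with 28 of 34 called higher, against 15.6% of all genes called lower and 16.2% higher. Of 16 NRF2 targets 15 were called higher at 24 h, against 0 at 6 h, and the ATF4 list had a median of 0.25 with 16 called higher and 2 lower. Cxcl10 had an excess of 1.47 at 24 h, and the difference between the times passed (1.43, adjusted p = 0.000402, limma).

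**Figure D5:**
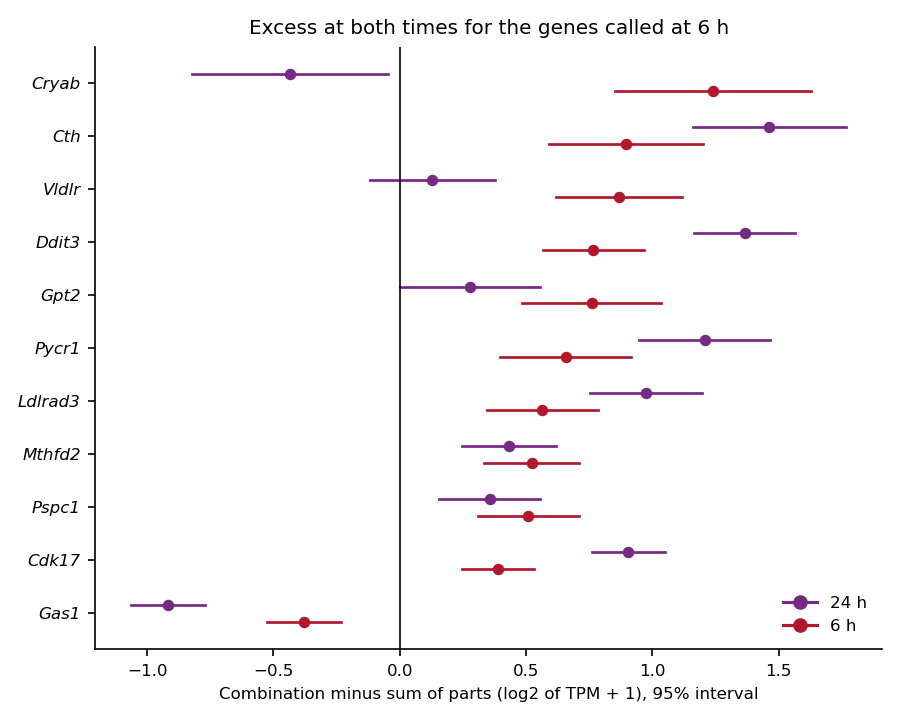
Excess of the combination in log2 at 24 h and 6 h for 11 of the genes called at 6 h, with 95% intervals. Cth, Ddit3 and Pycr1 exceed 1 at 24 h, Cryab lies below 0 there and Gas1 lies below 0 at both times.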

How the data were processed

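Transcript levels in TPM were deposited by the authors for 82934 transcripts. Per the submitters' processing notes, bcl2fastq 2.17.1.14 and kallisto 0.45 were used with GRCm38. Which transcript set kallisto used was not given in the sources. Per the labels' protocols, the libraries were stranded poly(A) mRNA. TPM keeps no depth, so the reads behind a value are unknown. The design text gives DESeq2, a count model, which was not used because TPM are not counts.

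Transcripts were summed per gene with GENCODE M21: 79662 matched 28328 genes, and 3272 (4.45% to 5.98% of TPM) did not. A gene was tested when 3 or more of the 24 libraries held 1 TPM or more. Values of log2(TPM + 1) were fitted in limma 3.58.1 (R 4.3.3) with a mean for each group, a variance trend, two-sided p-values and Benjamini-Hochberg adjustment over 12581 genes; those under 0.05 are called. Each gene's excess is combination minus chemotherapy minus trametinib plus untreated. The test was checked on simulated data. Alternatives changed the pseudocount, filter, scaling, spread, scale of addition and libraries used.

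The members and gene lists were chosen with earlier results of these data known. The rule for named genes took called genes with at least 5 TPM in a group at 6 h, the 2 first and up to 4 called members of each list, and Cxcl10; the other genes, Anxa8 among them, were chosen after their values were seen. Of the called genes, 1 is not reported here by name.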

Additional observations from a re-analysis of the deposited data

Results flagged for a closer look

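The excess of the combination differed between 24 h and 6 h in 1879 of 12581 genes (14.9%), in limma's test of the difference itself. The adjustment was Benjamini-Hochberg over all 12581 genes. Those given here are the 20 that passed among the called genes and the other genes picked for the text. Values are log2 differences, 24 h minus 6 h. Of the genes called at 6 h, the difference was 0.60 for Ddit3, 0.52 for Cdk17, 0.55 for Pycr1, -0.54 for Gas1, -0.74 for Vldlr and -1.68 for Cryab. Of the ATF4 targets it was -0.85 for Chac1 and -0.44 for Asns. It was 1.99 for Areg, 0.78 for Hbegf, 1.11 for Cdkn1a, 0.67 for Sesn2, 0.68 for Nusap1 and 1.43 for Cxcl10. It was 1.77 for Nqo1 and 0.84 for Gclc, both targets of NRF2. It was -1.21 for Hmgcs1, an enzyme of cholesterol synthesis. It was -0.93 for Ccne1 and -0.83 for Tyms, both genes of S phase, and -1.45 for Anxa8.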

How the results depend on the processing

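The 6 h count was the result most open to the settings, with 11 genes above the sum and 1 below it as reported. Fitted on the 12 libraries of 6 h it was 0 and 0. With a replicate block it was 4 and 0, and under Bonferroni 4 and 0. A pseudocount of 0.1 gave 6 above, and a pseudocount of 5 gave 17 above and 2 below. With no filter, with a mean of at least 5 TPM and with rescaled TPM it was 2 below each time. On the linear scale, also fitted on the 12 libraries of 6 h, it was 22 above and 6 below. Leaving out 1 library gave 3 to 34 above and 0 to 7 below. Bonferroni left 459 above and 362 below at 24 h, and 97 higher and 117 lower in the difference between the times. Without 1 library, 24 h gave 1699 to 2024 above and 1676 to 1976 below, and the difference between the times 644 to 833 higher and 881 to 1381 lower. The Cryab excess at 24 h turned to 0.43 with a pseudocount of 5 and was -1.61 with a pseudocount of 0.1 and -0.48 after rescaling, all past the threshold, and the mitotic median at 6 h to -0.011 on the linear scale; the cause was not tested. On the linear scale Areg turned from above to below the sum, and Shmt2, Spry4, Mdm2 and Nusap1, not called on either scale, changed sign. The ATF4 median ran between 0.27 and 0.35 without 1 library. The median of all genes was 0.043, or 0.0046 after rescaling.

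Replicate numbers did not pair the libraries: 2 of the 12 correlated best with their own number, with correlations of same-numbered deviations between -0.317 and 0.208. The number of reads is unknown, so the counting error of low TPM such as those of Ldlrad3 cannot be given.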
